A study of Mus musculus with 2 samples.

Results

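The MHC class I presentation genes described here are 10 mouse genes of the pathway that shows fragments of a cell's own proteins at its surface. They comprise the classical heavy chains H2-K1 and H2-D1, the further heavy chains H2-Q4, H2-Q7 and H2-T23, the light chain B2m, the peptide transporter subunits Tap1 and Tap2, and the immunoproteasome subunits Psmb8 and Psmb9. They were chosen by symbol, and all 10 were found among the 32285 genes listed for both libraries. The cKO library came from pooled intestinal tumours of Mtch2fl/fl VilCre mice, in which Cre recombinase under the Villin promoter deletes the floxed Mtch2 gene in the gut epithelium. The WT library came from pooled tumours of Mtch2fl/fl mice, which carry the same floxed allele without Cre. Tumours in both were induced by AOM-DSS, the carcinogen azoxymethane with the colitis agent dextran sodium sulfate. The number, age, sex and strain of the mice in each pool are not stated in the labels. Mtch2 encodes an outer-membrane protein of mitochondria.

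Each genotype was a single droplet library, so no difference between genotypes has a replicate check and no p-value is given. The unit throughout is the UMI, 1 captured RNA molecule, given as counts per 1000000 UMIs (CPM) after summing the cells of a class. Intervals are exact 95% Poisson intervals for levels and exact conditional binomial intervals for log2 ratios of cKO over WT, and both cover counting error only. A gene was taken as measured when its level reached 10 CPM in cKO or in WT, and as past the threshold at 1.5-fold. The deposited matrices held 6723 cKO and 9445 WT barcodes with 97364087 and 116066712 UMIs, and 4406 cKO and 7249 WT cells were kept. Epithelial-like cells, in 10 clusters, numbered 2078 in cKO and 3250 in WT, with all 10 epithelial markers detected at a summed 10590 CPM in cKO and 11587 CPM in WT. Unnamed clusters held 14.9% of cKO cells and 38.6% of WT cells, most of them in 1 cluster with a median of 733 UMIs. The 2 libraries shared 22 barcode sequences. Mtch2 itself stood at 23.4 CPM in cKO and 93.4 CPM in WT epithelial-like cells (log2 ratio -2.00, interval -2.08 to -1.92). In T-like cells it stood at 37.8 CPM in cKO and 40.4 CPM in WT. The other classes varied, with 35.6 CPM in cKO and 64.6 CPM in WT dendritic-like cells. In endothelial-like cells it stood at 50.9 CPM in cKO and 47.9 CPM in WT.

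Class I molecules carry short peptides that the proteasome cuts from proteins inside the cell. The transporter built from Tap1 and Tap2 moves these peptides into the endoplasmic reticulum, where a heavy chain pairs with B2m, is loaded and travels to the surface. CD8 T cells read the result, and natural killer cells respond to its absence. Nearly all nucleated cells make class I at some level, interferon gamma raises it, and the transactivator Nlrc5 acts at class I promoters together with the RFX and NF-Y factors. Reduced class I is a known route by which tumour cells escape CD8 T cells.

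Apart from B2m, which lies on chromosome 2 (chr2:122147686-122153083, GRCm38, plus strand), the genes lie within the major histocompatibility complex on chromosome 17. H2-K1 occupies chr17:33996017-34000347 on the minus strand. Psmb9 (chr17:34181987-34187764, minus strand), Tap1 (chr17:34187553-34197225, plus strand), Psmb8 (chr17:34197721-34201454, plus strand) and Tap2 (chr17:34203527-34216321, plus strand) form a tight block. The annotated Psmb9 and Tap1 genes overlap by 212 bases on opposite strands, so the counting of strand, not given in the sources used here, bears on both. H2-D1 (chr17:35262730-35267499), H2-Q4 (chr17:35379617-35385290) and H2-Q7 (chr17:35439155-35443773) follow on the plus strand, and H2-T23 (chr17:36029773-36032855) on the minus strand. The 90-base windows in the last 500 bases of each gene's longest protein-coding transcript were searched for in other genes. Of these, 9.49% of those of H2-Q4 and 13.4% of those of H2-T23 were found in another gene, and none of those of the other 8 members. The ends of the members' other transcripts were not searched.

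The promoters of the heavy chains and B2m are shown for their matches to the letters of known regulatory motifs. Promoter windows from RefSeq (GRCm38.p6, 250 bases before to 50 after each gene start) were found for 9 of the 10 members, all but Tap2. The RefSeq starts differ from the gene positions given above for some members. The H2-D1 stretch, the Psmb8 and Psmb9 windows and most of the H2-T23 stretch thus lie inside the genes as placed there. The stretches below are written 5′ to 3′ on the gene's strand. Capitals mark matches to the kappa B motif GGGATTCCC, to the interferon-stimulated response element in the forms GAAANNGAA and GAANNGAAA and to the CCAAT box, each searched on both strands, where the CCAAT box reads ATTGG on the other one. They are chr17:34000332-34000461 (minus strand) for H2-K1, chr17:35262919-35263048 (plus strand) for H2-D1, chr17:35439017-35439146 (plus strand) for H2-Q7, chr17:35379440-35379569 (plus strand) for H2-Q4, chr17:36032746-36032875 (minus strand) for H2-T23 and chr2:122147512-122147641 (plus strand) for B2m.
H2-K1: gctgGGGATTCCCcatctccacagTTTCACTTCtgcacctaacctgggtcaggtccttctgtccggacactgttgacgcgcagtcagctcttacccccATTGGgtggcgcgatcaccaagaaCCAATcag
H2-D1: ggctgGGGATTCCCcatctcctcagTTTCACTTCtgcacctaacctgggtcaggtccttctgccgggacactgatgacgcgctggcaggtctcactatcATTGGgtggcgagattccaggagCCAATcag
H2-Q7: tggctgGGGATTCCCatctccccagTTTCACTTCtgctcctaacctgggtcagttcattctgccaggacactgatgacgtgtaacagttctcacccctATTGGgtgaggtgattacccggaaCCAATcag
H2-Q4: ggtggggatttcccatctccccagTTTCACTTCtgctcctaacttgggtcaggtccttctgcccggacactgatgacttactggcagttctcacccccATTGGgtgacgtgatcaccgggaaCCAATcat
H2-T23: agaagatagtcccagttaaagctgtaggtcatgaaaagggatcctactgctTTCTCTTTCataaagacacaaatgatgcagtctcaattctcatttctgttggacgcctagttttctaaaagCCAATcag
B2m: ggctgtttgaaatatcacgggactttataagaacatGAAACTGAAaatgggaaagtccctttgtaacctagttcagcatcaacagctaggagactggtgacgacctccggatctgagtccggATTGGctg
The exact kappa B motif was present for H2-K1, H2-D1 and H2-Q7, 3 of the 9 members with a window, against 100 of 27025 promoters of the same length (0.37%). It was searched in this 1 form alone, and H2-Q4 reads gggatttccc at that place, which was not counted. The 3 stretches also resemble each other outside the motif, so the count beside that share is a description only. The interferon-stimulated response element was present as GAAANNGAA for B2m and H2-T23 (8.57% of all promoters) and as GAANNGAAA for H2-K1, H2-D1, H2-Q7 and H2-Q4 (7.56%), and 14.9% of all promoters held it in either form. The form GAANNGAAA was added to the search after these sequences were seen, so its count beside those shares is a description only. In H2-K1, H2-D1, H2-Q7 and H2-Q4 the element reads TTTCACTTC on the printed strand, and it overlaps none of the other matches. H2-T23 held no kappa B match and 1 CCAAT box, as did B2m, so the 5 heavy chains are not alike in these letters. The CCAAT box was present for 8 of the 9, against 37.9% of all promoters, and a gamma-activated sequence, TTCNNNGAA, for Psmb8 alone, against 8.47%. The Tap1 and Psmb9 windows overlap on opposite strands, and their CCAAT matches are the same bases. That box is thus counted for both genes, and the 8 are not separate sites. A match describes the letters in these windows and shows no binding.

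In epithelial-like cells, the cells in which Cre is active, every one of the 10 genes was at a lower level in cKO than in WT. The median log2 ratio over the 10 was -0.46 (-0.55 to -0.42, the median of the members' lower bounds to that of their upper bounds), beside -0.02 over all 9398 genes measured. Of those genes, 55.6% were lower by any amount. The difference was mostly moderate: 1 of the 10, H2-Q7, was lower by 1.5-fold or more, beside 1.15% of all genes measured. Summed, the 10 genes made up 1873 CPM in cKO and 2523 CPM in WT.

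The 2 classical heavy chains, which present most peptides to CD8 T cells, were the most abundant members by UMIs. H2-K1 stood at 539 CPM in cKO (38602 UMIs) and 734 CPM in WT (68965 UMIs), a log2 ratio of -0.45 (-0.46 to -0.43). H2-D1 stood at 615 CPM in cKO and 783 CPM in WT, a log2 ratio of -0.35 (-0.36 to -0.33), the smallest difference of the 10. Both intervals are narrow because the counts are large, and neither holds the spread between mice.

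The heavy chains of the Q and T regions were lower as well. H2-Q7, a heavy chain of the Qa-2 antigen, stood at 44.5 CPM in cKO and 84.1 CPM in WT, with a log2 ratio of -0.92 (-0.98 to -0.86). H2-Q4 stood at 41.9 CPM in cKO and 60.7 CPM in WT (-0.53, -0.60 to -0.47). H2-T23, the Qa-1 heavy chain that is read by inhibitory receptors of natural killer and CD8 T cells, stood at 51.2 CPM in cKO and 67.8 CPM in WT (-0.40, -0.46 to -0.35). The ratio of H2-Q7 to H2-K1 UMIs was therefore lower in cKO, at 0.0827 in cKO and 0.115 in WT. B2m, the light chain every one of these heavy chains needs, stood at 462 CPM in cKO and 626 CPM in WT (-0.44, -0.46 to -0.42), and its ratio to H2-K1 was 0.859 in cKO and 0.853 in WT.

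The genes of peptide supply differed by about the same amount. Tap1 stood at 17.1 CPM in cKO and 22.9 CPM in WT (-0.42, -0.52 to -0.32), and Tap2 at 14.7 CPM in cKO and 20.5 CPM in WT (-0.47, -0.58 to -0.36). Psmb8, the inducible subunit that takes the place of Psmb5 in the immunoproteasome, stood at 60.4 CPM in cKO and 87.4 CPM in WT (-0.53, -0.58 to -0.48). Psmb9, which takes the place of Psmb6, stood at 26.5 CPM in cKO and 37.4 CPM in WT (-0.50, -0.58 to -0.42). The subunits they replace did not share the difference: Psmb5 was at 190 CPM in cKO and 182 CPM in WT. The ratio of Psmb8 to Psmb5 UMIs was accordingly 0.318 (0.307 to 0.329) in cKO and 0.480 (0.467 to 0.492) in WT, and that of Psmb9 to Psmb6 was 0.155 in cKO and 0.223 in WT.

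**Figure D1:**
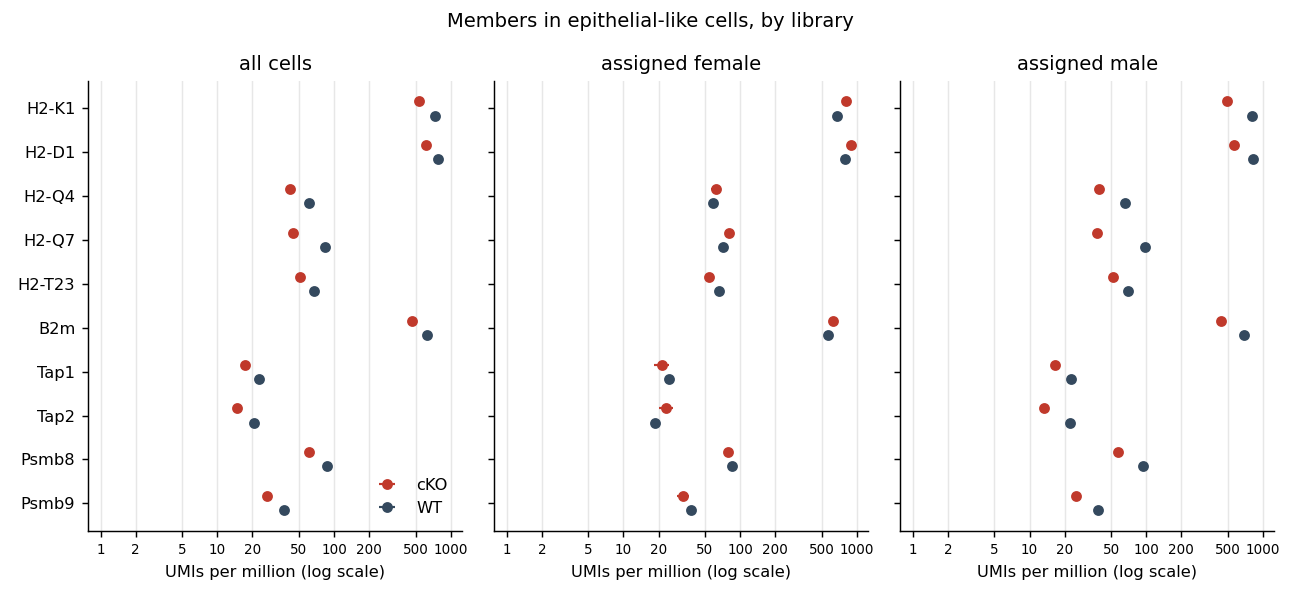
Level of each of the 10 genes in epithelial-like cells, in CPM on a log axis, with cKO in red above WT in blue and 95% Poisson intervals, for all cells and for cells assigned to either sex. In all cells and in male-assigned cells every red point lies left of its blue point (H2-K1 at 539 CPM in cKO and 734 CPM in WT over all cells), while in female-assigned cells H2-K1 lies at 802 CPM in cKO and 674 CPM in WT.

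The size and direction of this difference varied with the sex of the cells. A cell was assigned female when it held UMIs of Xist and none of the Y-linked genes Ddx3y, Eif2s3y, Kdm5d and Uty, and male when the reverse held. The pools differed in this respect: of epithelial-like cells with an assignment, 21.6% were female in cKO and 45.9% in WT, so both libraries mixed the sexes in unequal parts. The cells of one sex in a library may come from few mice, and their number is not given.

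In male-assigned epithelial-like cells (1177 in cKO, 1181 in WT), all 10 genes were lower in cKO, 7 of them by 1.5-fold or more. Of all genes measured in these cells, 61.9% were lower by any amount and 2.2% by 1.5-fold or more. The median log2 ratio was -0.68 (-0.73 to -0.60), and -0.39 in cells without leukocyte panel UMIs. H2-Q7 stood at 38.0 CPM in cKO and 97.2 CPM in WT (-1.36), H2-K1 at 491 CPM in cKO and 811 CPM in WT (-0.72), and B2m at 441 CPM in cKO and 692 CPM in WT (-0.65). H2-Q4 (-0.75), Tap2 (-0.73), Psmb8 (-0.71) and Psmb9 (-0.60) also passed the threshold, and H2-D1 (-0.53), Tap1 (-0.46) and H2-T23 (-0.45) did not.

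In female-assigned epithelial-like cells (324 in cKO, 1003 in WT), the genes were split in direction. The median log2 ratio was 0.10 (-0.01 to 0.20), 6 of the 10 were higher in cKO and 4 lower, and 46.3% of all genes measured were lower by any amount. None of the 10 passed 1.5-fold either way, beside 3.77% of all genes lower and 3.8% higher by that much. The median was larger in several other settings, at 0.46 in cells without leukocyte panel UMIs and 0.30 with clusters weighted equally. The heavy chains H2-K1 (802 CPM in cKO, 674 CPM in WT, 0.25), H2-D1 (893 CPM in cKO, 787 CPM in WT, 0.18) and H2-Q7 (81.0 CPM in cKO, 71.4 CPM in WT, 0.18) were higher in cKO, as were B2m (620 CPM in cKO, 565 CPM in WT, 0.13) and Tap2 (23.1 CPM in cKO, 18.8 CPM in WT, 0.30). H2-Q4 stood at 61.8 CPM in cKO and 58.8 CPM in WT, with an interval of the log2 ratio from -0.07 to 0.21. H2-T23 (54.7 CPM in cKO, 65.9 CPM in WT, -0.27), Psmb9 (32.3 CPM in cKO, 38.2 CPM in WT, -0.24), Tap1 (21.4 CPM in cKO, 24.5 CPM in WT, -0.20) and Psmb8 (78.3 CPM in cKO, 86.0 CPM in WT, -0.13) were lower. The interval lay below 0 for 3 of these 4 but not for Tap1. The ratio of Psmb8 to Psmb5 UMIs was 0.443 in cKO and 0.473 in WT in these cells, against 0.296 in cKO and 0.515 in WT in male-assigned cells. Epithelial-like cells with no assignment (577 in cKO, 1066 in WT) had a median of -0.45, with all 10 lower (52% of all genes) and 1 past 1.5-fold (2.29%).

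The summed epithelial markers followed the same split. They stood at 13515 CPM in cKO and 12050 CPM in WT in female-assigned cells, and at 9919 CPM in cKO and 11377 CPM in WT in male-assigned cells. Mtch2 was lower in cKO in both, at 32.3 CPM in cKO and 88.2 CPM in WT in female-assigned cells, and 21.0 CPM in cKO and 97.4 CPM in WT in male-assigned cells. Whether the difference between the sexes belongs to sex, to single mice or to the tumours they carried was not tested.

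**Figure D2:**
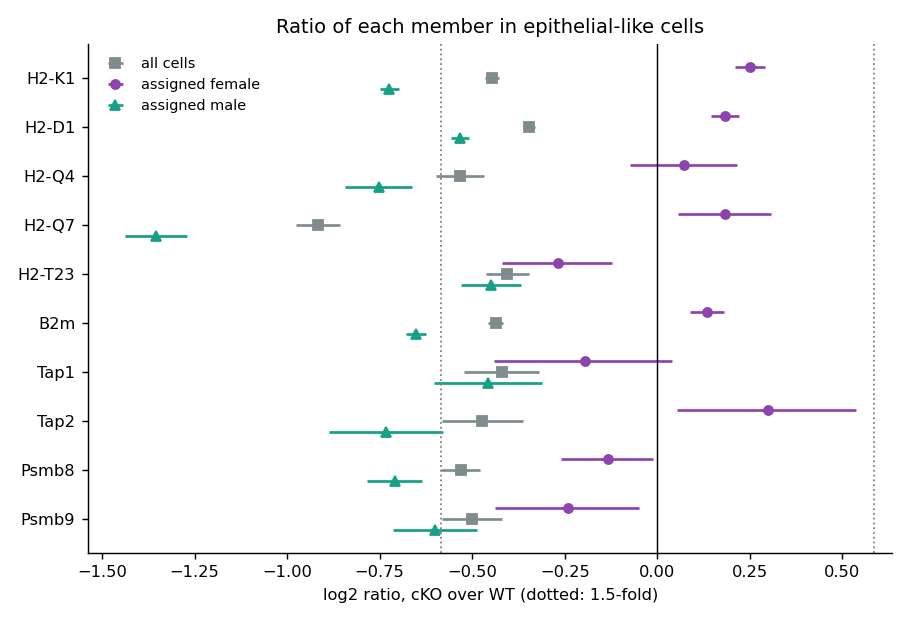
Log2 ratio of cKO over WT for each of the 10 genes in epithelial-like cells, with 95% intervals, for all cells (grey squares), female-assigned cells (purple circles) and male-assigned cells (green triangles), and dotted lines at 1.5-fold. Every green triangle lies below 0, from -1.36 for H2-Q7 to -0.45 for H2-T23, whereas the purple circles run from -0.27 for H2-T23 to 0.30 for Tap2.

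Cells were also compared at equal depth, since the median epithelial-like cell held 26481 UMIs in cKO and 17905 in WT. After each cell was thinned to 5000 UMIs, with shallower cells left out (571 in cKO, 859 in WT), the median cell held 7 UMIs of the 10 genes in cKO and 10 in WT. In male-assigned cells the thinned medians were 6 in cKO and 10 in WT, and in female-assigned cells 11 in cKO and 10 in WT. Unthinned, the summed level was 1743 CPM in cKO and 2738 CPM in WT in male-assigned cells, and 2668 CPM in cKO and 2390 CPM in WT in female-assigned cells.

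Leukocyte RNA stood at a low level in the epithelial-like cells of both libraries. A panel of 12 leukocyte genes summed to 76.3 CPM in cKO and 82.5 CPM in WT there, against 23417 CPM in cKO and 21698 CPM in WT in neutrophil-like cells. All 10 T cell markers were detected in epithelial-like cells, at a summed 9.47 CPM in cKO and 9.90 CPM in WT, and the 12 macrophage and monocyte markers at 75.1 CPM in cKO and 126 CPM in WT. The 11 neutrophil markers ran the other way, at 119 CPM in cKO and 52.7 CPM in WT. Among epithelial-like cells without a single UMI of the leukocyte panel (672 in cKO, 1290 in WT), all 10 genes were still lower in cKO (53.1% of all genes) but none by 1.5-fold (1.5%), with a median of -0.17. In the cells with such UMIs (1406 in cKO, 1960 in WT) the median was -0.51, with 2 past 1.5-fold (1.31%). A deeper cell is more likely to hold a panel UMI, so this split also sorts cells by depth. The parts of depth and of leukocyte RNA in it were not tested. In 5 bins of cells by depth the median lay between -0.51 and -0.29.

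Epithelial subtypes differed in level and in how far apart the libraries were. Clusters are given by some of their 10 leading genes, not always the first of them. The 10 class I genes were kept out of the genes that made the clusters. Of the 10 clusters, 9 had a median log2 ratio below 0. H2-K1 was highest in the absorptive colonocyte-like cluster led by Car4, a carbonic anhydrase of mature colonocytes, at 1034 CPM in cKO and 1529 CPM in WT. This cluster is shallow, with a median of 6932 UMIs in cKO and 6339 in WT, and had median mitochondrial shares of 16.6% in cKO and 14.8% in WT, the highest of the 10 clusters. Among the deeper clusters H2-K1 was highest in the secretory one in cKO and in the one led by Npy and Sox11 in WT. The cluster led by S100g and Mptx2 was at the low end in both libraries, at 347 CPM in cKO and 407 CPM in WT. The cluster led by the mitotic genes Top2a and Plk1 stood beside it in cKO, at 346 CPM, but at 547 CPM in WT.

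The libraries lay farthest apart in the cluster led by Npy and Sox11 (317 cKO and 519 WT cells), a neuropeptide and a developmental transcription factor. There 7 of the 10 genes were lower by 1.5-fold or more (2.2% of all genes measured), with a median of -0.71. H2-K1 stood at 689 CPM in cKO and 1160 CPM in WT, and H2-Q7 at 70.1 CPM in cKO and 188 CPM in WT (-1.42, -1.53 to -1.31). Cells assigned female made up 9.36% of the assigned cells of this cluster in cKO and 35.5% in WT. In its male-assigned cells (242 in cKO, 247 in WT) the median was -0.86, again with 7 past 1.5-fold (4.03%).

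In the Lgr5 stem-like cluster (279 cKO and 730 WT cells), named for a receptor of crypt stem cells, the median was -0.48 and 3 genes passed 1.5-fold (1.9%). Psmb8 stood at 40.9 CPM in cKO and 69.0 CPM in WT there, whereas Tap1 stood at 14.8 CPM in cKO and 15.4 CPM in WT. The absorptive colonocyte-like cluster led by Krt20 and Car1 (293 and 406 cells) also had a median of -0.48, with 4 past 1.5-fold (1.91%). It differed in which genes led: Tap1 stood at 20.0 CPM in cKO and 37.7 CPM in WT (-0.91), and Psmb8 at 89.4 CPM in cKO and 139 CPM in WT. H2-Q7 was scarce in it, at 12.1 CPM in cKO and 21.1 CPM in WT, and its ratio to H2-K1 was 0.0223 in cKO and 0.0310 in WT. The Car4 cluster (117 and 130 cells) had a median of -0.53 with 4 past 1.5-fold (10.2%), and Psmb8 stood at 122 CPM in cKO and 114 CPM in WT.

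The remaining clusters had medians nearer to 0, and the size of the difference was not tested between clusters. The mitotic cluster led by Cdca7 and Ccna2 (256 and 368 cells) had a median of -0.24, with Tap1 alone past 1.5-fold (1.27%), a median that joins male-assigned and female-assigned cells of opposite direction. The Top2a and Plk1 cluster (134 and 177 cells) had a median of -0.39 over 9 measured genes, with 3 past 1.5-fold (5.26%), and the S100g and Mptx2 cluster (151 and 160 cells) one of -0.18, with 2 past 1.5-fold (4.88%). In the goblet and Paneth-type secretory cluster (81 and 208 cells) the median was 0.07, 7 genes were higher in cKO and 3 lower (47.3% of all genes were lower), none of them by 1.5-fold (4.77%). There H2-Q7 stood at 85.9 CPM in cKO and 64.0 CPM in WT (0.42, 0.20 to 0.65), and the 10 genes summed to 2325 CPM in cKO and 2299 CPM in WT. The leukocyte panel summed to 72.9 CPM in cKO and 244 CPM in WT in this cluster, and its part in the values was not tested. The 2 remaining clusters were also shallow and led by no subtype's markers, with medians of -0.18 and -0.40.

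**Figure D3:**
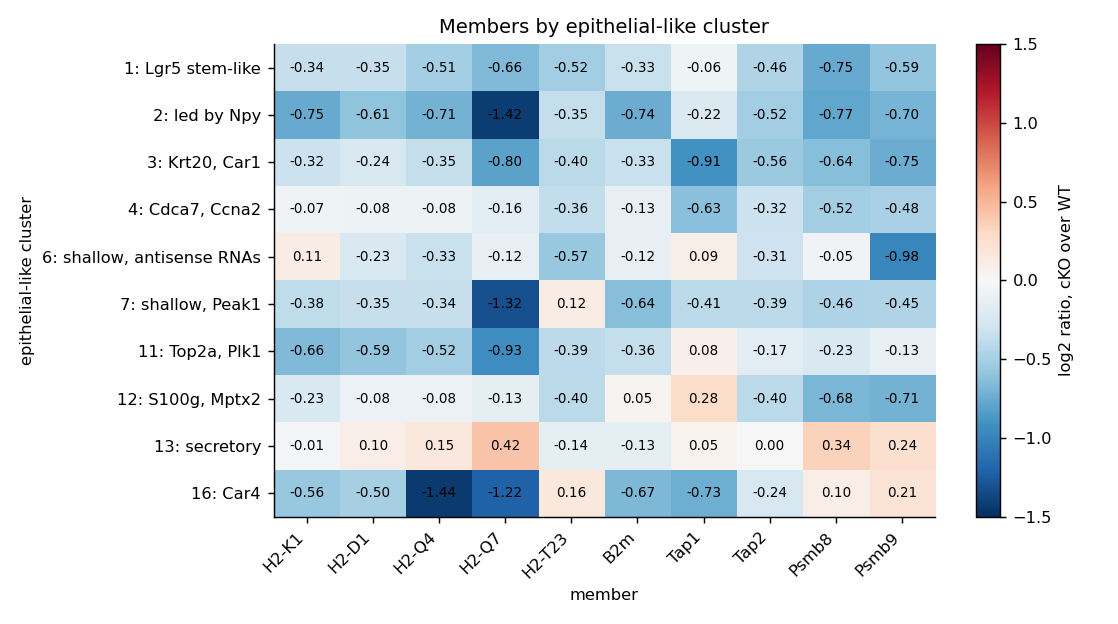
Log2 ratio of cKO over WT for the 10 genes (columns) in the 10 clusters of epithelial-like cells (rows), drawn with blue for lower and red for higher in cKO. The cluster led by Npy is the row with the lowest median (-0.71) and holds H2-Q7 at -1.42, and the secretory cluster, with a median of 0.07, is the row in which 7 of the 10 genes are higher in cKO.

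Single clusters that held at least 50 cells of each kind were also split by sex, and the direction turned in some of them but not in all. In the Lgr5 stem-like cluster, male-assigned cells (161 in cKO, 256 in WT) had a median of -0.97 with all 10 genes lower (59.8% of all genes) and 8 past 1.5-fold (4.82%), and female-assigned cells (55 in cKO, 250 in WT) a median of 0.54 with 9 of 10 higher (44.1% of all genes lower) and 5 past 1.5-fold (10.3%). H2-K1 stood at 369 CPM in cKO and 730 CPM in WT in the male-assigned cells, and at 1204 CPM in cKO and 709 CPM in WT in the female-assigned cells. B2m stood at 322 CPM in cKO and 623 CPM in WT in the male-assigned cells, and at 979 CPM in cKO and 552 CPM in WT in the female-assigned cells. For H2-K1 and B2m in this cluster, the 2 WT values thus lay closer together than the cKO values, which lay on either side of them. In the Cdca7 and Ccna2 cluster, the median was -0.72 in male-assigned cells (133 and 124 cells, 8 lower by 1.5-fold, 5.12%) and 0.47 in female-assigned cells (65 and 122 cells, 3 higher by 1.5-fold, 10.3%). In the Krt20 and Car1 cluster it was below 0 in both, at -0.59 in male-assigned cells (166 and 143 cells, 5 lower by 1.5-fold, 3.47%) and -0.37 in female-assigned cells (60 and 130 cells, 3 lower by 1.5-fold, 5.94%). Male-assigned cells of 1 shallow cluster without a subtype (107 in cKO, 96 in WT) had 7 of the 10 genes higher in cKO and 3 lower (47.5% of all genes lower). None of its intervals lay above 0. In male-assigned cells of the other clusters compared, 8 to 10 of the 10 genes were lower, beside 46.6% to 58.2% of all genes. Between 5 and 10 of the intervals in each of these clusters lay below 0.

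Outside the epithelium, where the Villin promoter is not active, the heavy chains were most abundant in T-like cells. H2-K1 stood at 2334 CPM in cKO and 2141 CPM in WT T-like cells, and H2-Q7 at 730 CPM in cKO and 737 CPM in WT, against 44.5 CPM in cKO and 84.1 CPM in WT epithelial-like cells. H2-K1, H2-D1 and H2-Q7 were highest in T-like cells in both libraries, and H2-Q4 in T-like cells of cKO and in T and NK-like cells of WT, with overlapping intervals. For H2-D1 the neutrophil-like cells followed closely, at 1852 CPM in cKO and 1744 CPM in WT beside 1942 CPM in cKO and 1857 CPM in WT T-like cells, and the intervals overlapped. H2-T23 was highest in endothelial-like cells, overlapping T-like cells, and B2m in macrophage and monocyte-like cells, at 2281 CPM in cKO and 2217 CPM in WT, overlapping endothelial-like cells in WT. Tap1, Psmb8 and Psmb9 were highest in dendritic-like cells, the specialised presenting cells, with Psmb8 at 569 CPM in cKO and 685 CPM in WT. Tap2 was highest in dendritic-like cells of cKO and in endothelial-like cells of WT, with overlapping intervals.

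**Figure D4:**
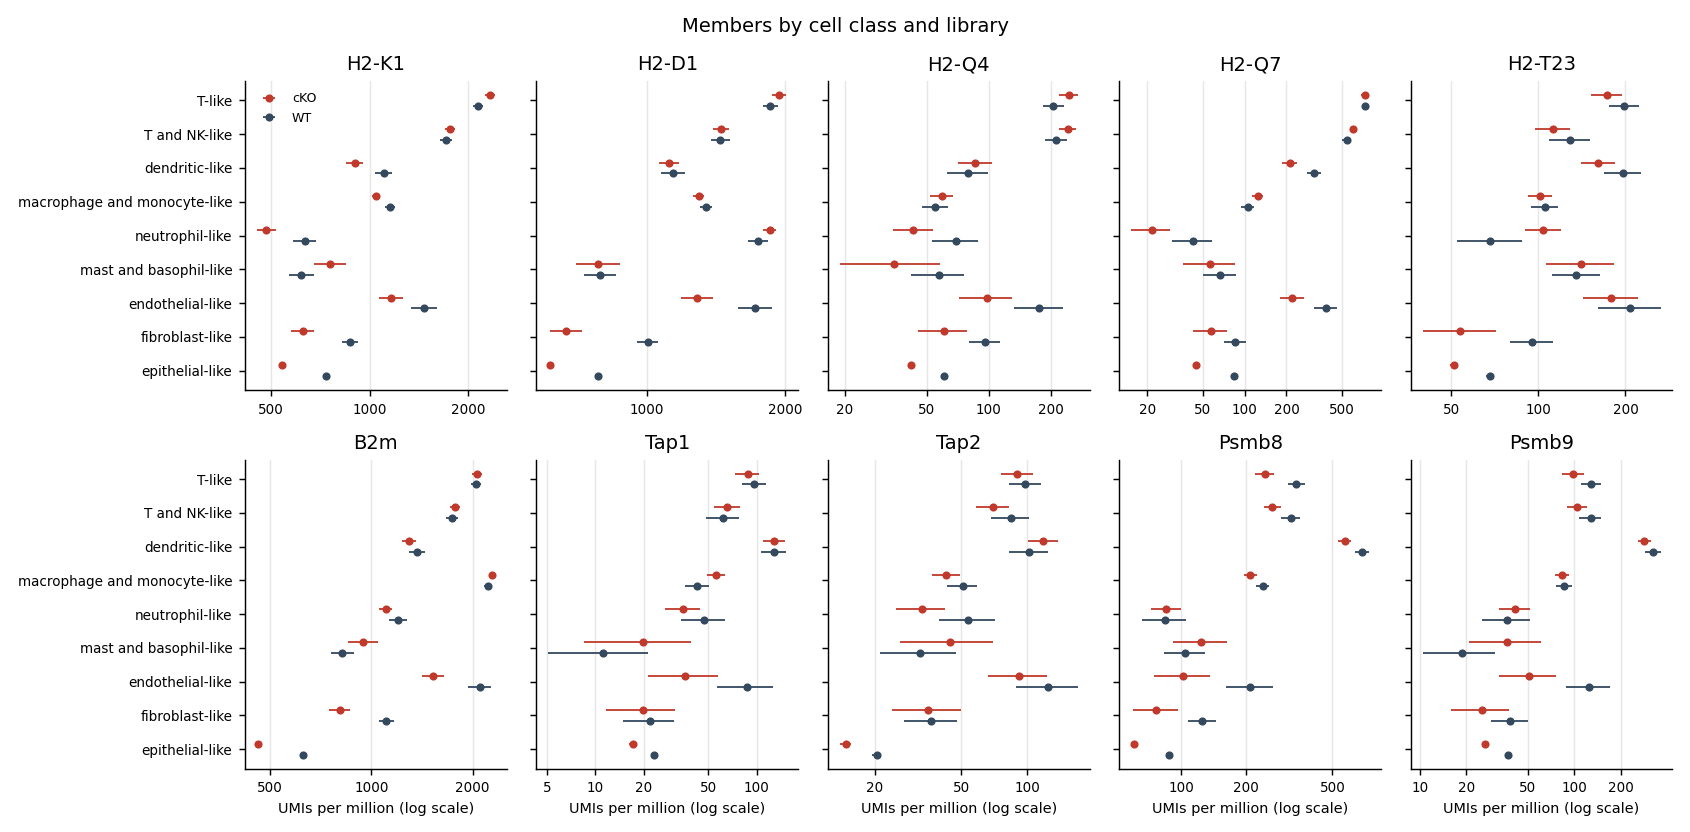
Level of each of the 10 genes in the 9 classes with at least 50 cells in both libraries, in CPM on a log axis, with cKO in red above WT in blue and 95% Poisson intervals. H2-K1, H2-D1 and H2-Q7 are highest in T-like cells (H2-K1 at 2334 CPM in cKO and 2141 CPM in WT), Psmb8 and Psmb9 in dendritic-like cells, and the epithelial-like points lie at or near the low end of each panel.

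The balance among members differed between classes. H2-D1 UMIs outnumbered those of H2-K1 in neutrophil-like cells by a ratio of 3.83 (3.56 to 4.13) in cKO and 2.76 (2.50 to 3.04) in WT. In T-like cells the ratio was 0.832 in cKO and 0.867 in WT, and in epithelial-like cells 1.14 in cKO and 1.07 in WT. The ratio of Psmb8 to Psmb5 was 3.78 in cKO and 4.73 in WT dendritic-like cells, 2.70 in cKO and 3.72 in WT T-like cells, and 1.32 in cKO and 1.86 in WT macrophage and monocyte-like cells, all above the epithelial value. As a description over 21 combinations of class and library, which share the 2 libraries, the closest pairs by Pearson's r were H2-Q7 with H2-K1 (0.95), Psmb9 with Psmb8 (0.94) and Psmb9 with Tap1 (0.92), and the least alike were Psmb8 with H2-D1 (0.45). The genes outside the lists whose pattern over these combinations was most like the mean of the 10, among 10530 compared, were Auh (0.87), Ptpn18 (0.87), Prex1 (0.87), Lrrc8c (0.87) and Wdr37 (0.86).

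**Figure D5:**
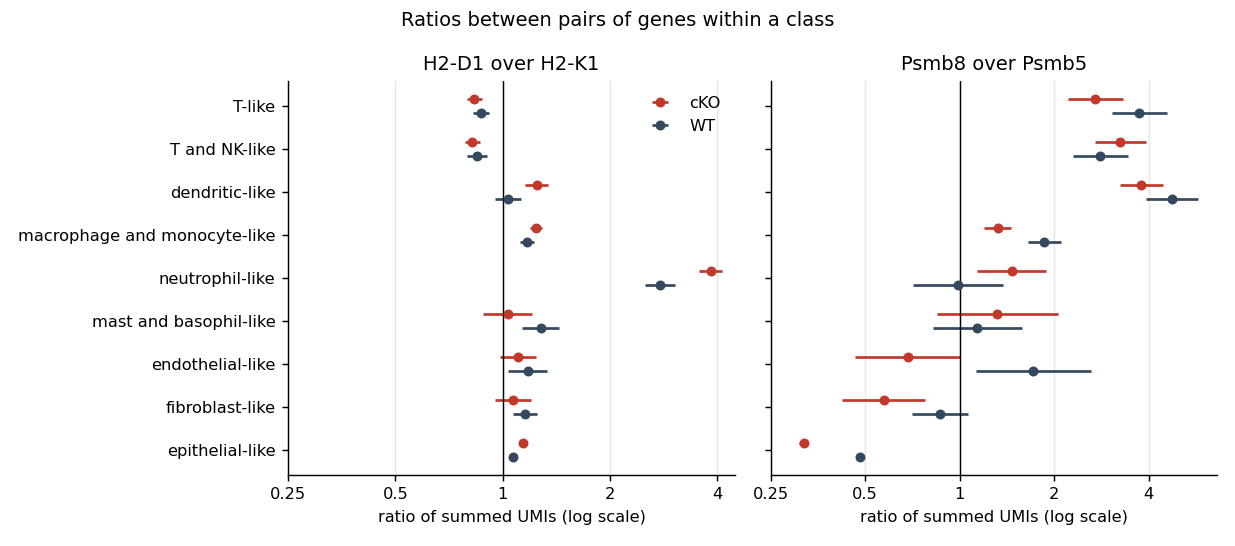
Ratio of summed UMIs between H2-D1 and H2-K1 (left) and between Psmb8 and Psmb5 (right) in each class, on a log axis, with cKO in red above WT in blue and 95% intervals. Neutrophil-like cells stand apart on the left, at 3.83 in cKO and 2.76 in WT, and on the right epithelial-like cells hold the lowest ratio of the 9 classes drawn, 0.318 in cKO and 0.480 in WT.

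Between genotypes, the medians of most immune classes lay close to 0. In T-like cells (196 in cKO, 180 in WT) the median log2 ratio was -0.07 (-0.29 to 0.13), 6 genes were lower (52.6% of all genes) and none by 1.5-fold (10.1%). Psmb8 stood at 243 CPM in cKO and 341 CPM in WT (-0.49, -0.69 to -0.29) and Psmb9 at 98.5 CPM in cKO and 128 CPM in WT (-0.38, -0.70 to -0.06), while B2m stood at 2061 CPM in cKO and 2047 CPM in WT. In macrophage and monocyte-like cells (220 and 159) the median was -0.05 (-0.19 to 0.12) with none lower by 1.5-fold (7.22%), and Tap1 stood at 55.8 CPM in cKO and 42.5 CPM in WT (0.39). T and NK-like cells (203 and 118) had a median of 0.02, with none lower by 1.5-fold (11%), and dendritic-like cells (76 and 58) one of -0.13, with none lower by 1.5-fold (17.2%). Mast and basophil-like cells (52 and 134) had a median of 0.23. Of the assigned cells of this class 14.3% were female in cKO and 89.1% in WT, and its Tap1 counts were 8 UMIs in cKO and 9 in WT. Restricted to male-assigned cells, the median was 0.08 in T-like cells (148 and 80) and 0.10 in macrophage and monocyte-like cells (144 and 70).

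In neutrophil-like cells (382 in cKO, 216 in WT) the median was -0.25 (-0.49 to 0.08), but that of all genes measured was -0.29, and 28.7% of all genes were lower by 1.5-fold or more. Against that background 3 of the 10 were lower by as much, with H2-Q7 at 21.5 CPM in cKO and 42.5 CPM in WT, and H2-T23 was higher, at 104 CPM in cKO and 68.2 CPM in WT (0.60, 0.18 to 1.05; 4.67% of all genes higher by 1.5-fold). In 2 small stromal classes the genes were lower in cKO. Endothelial-like cells (54 and 52) had a median of -0.63 (-1.15 to -0.28) with all 10 lower (52.1%) and 5 by 1.5-fold (22.4%), and fibroblast-like cells (88 and 183) one of -0.58 (-1.07 to -0.25) with all 10 lower (59.3%) and 5 by 1.5-fold (25.4%). H2-D1 stood at 1284 CPM in cKO and 1721 CPM in WT endothelial-like cells, and at 666 CPM in cKO and 1003 CPM in WT fibroblast-like cells. The leukocyte panel summed to 200 CPM in cKO and 558 CPM in WT fibroblast-like cells, and to 416 CPM in cKO and 351 CPM in WT endothelial-like cells. Its part in these differences was not tested, nor was the difference between these classes and epithelial-like cells.

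Other genes of the pathway are given by role in epithelial-like cells, where 55.6% of all genes were lower by any amount and 1.15% by 1.5-fold or more. Of 14 further class I and class I-like heavy chains in the files, 4 were measured and all 4 were lower in cKO, with a median of -0.39. H2-Q6, a close relative of H2-Q7, stood at 21.5 CPM in cKO and 46.8 CPM in WT (-1.12, 1 of the 4 past 1.5-fold), and Fcgrt, the neonatal Fc receptor, had the smallest difference (-0.27). Of 10 peptide loading and trimming genes, 6 were lower, near the share of all genes, and none by 1.5-fold, with a median of -0.10. The extremes were Tapbp (tapasin), which holds heavy chains at the transporter, at 87.7 CPM in cKO and 115 CPM in WT (-0.39), and the oxidoreductase Pdia3 (0.03). Of 4 genes for the proteasome activator, its maturation factor and the third inducible subunit, 3 were lower, from Psme1 (-0.25) to Pomp (0.06). The constitutive catalytic subunits had a median of 0.03, from Psmb7 (-0.04) to Psmb5 (0.06), and 10 of the 11 other core proteasome subunits were higher in cKO, from Psmb4 (-0.00) to Psma5 (0.12). The proteasome genes that are not part of the inducible form thus had log2 ratios near 0.

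Of 12 class I regulators measured, 10 were lower and none by 1.5-fold, with a median of -0.11. Nlrc5, the class I transactivator, was the lowest, at 13.6 CPM in cKO and 19.6 CPM in WT (-0.53), and Nfyb, an NF-Y subunit, the highest (0.10). Nlrc5 stood at 12.9 CPM in cKO and 21.5 CPM in WT in male-assigned cells (-0.73, -0.89 to -0.58), and at 15.7 CPM in cKO and 17.4 CPM in WT in female-assigned cells (-0.14, -0.43 to 0.13). Of 13 interferon receptor and signalling genes, 9 were lower, with a median of -0.05, from the kinase Jak2 (-0.24) to the feedback inhibitor Socs3, at 37.9 CPM in cKO and 26.1 CPM in WT (0.54). Of 8 interferon genes none was measured in epithelial-like cells. Ifng, interferon gamma, was found mainly in T and NK-like cells, at 82.5 CPM in cKO (153 UMIs) and 290 CPM in WT (338 UMIs), and in T-like cells at 14.4 CPM in cKO and 32.6 CPM in WT. Its part in the class I levels was not tested.

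Most interferon-induced genes and the measured class II genes were lower in epithelial-like cells too, and the 2 lists differed in their split by sex. Of 24 interferon-induced genes measured, 21 were lower (55.6% of all genes) and 4 by 1.5-fold (1.15%), with a median of -0.37. Lower by that much were the GTPases Gbp4 (4.69 CPM in cKO, 11.2 CPM in WT, -1.26) and Iigp1 (-1.03). So were the antiviral enzyme Rsad2 (-0.84) and the T cell chemokine Cxcl10 (99.4 CPM in cKO, 155 CPM in WT, -0.64). Cxcl9, a chemokine of the same family, was higher, at 14.8 CPM in cKO and 7.11 CPM in WT (1.06, beside 0.873% of all genes higher by 1.5-fold). Gbp4 reached the measured level of 10 CPM in WT alone and Cxcl9 in cKO alone. Both thus entered the list through the library where they were higher. In female-assigned cells all 21 measured interferon-induced genes were lower (46.3% of all genes) and 12 by 1.5-fold (3.77%), with a median of -0.66. In male-assigned cells 16 of 23 were lower (61.9% of all genes), with a median of -0.16. The 10 class I genes had medians of 0.10 in female-assigned cells and -0.68 in male-assigned cells. Of the class II presentation genes 4 were measured and all 4 lower, 2 by 1.5-fold, with Cd74, the invariant chain, at 127 CPM in cKO and 242 CPM in WT (-0.94) and H2-Eb1 at 21.2 CPM in cKO and 32.5 CPM in WT (-0.62), and with H2-Ab1 (-0.57) the nearest to 0. The class II median was 0.17 in female-assigned cells and -0.70 in male-assigned cells, split by sex in the same direction as the class I genes. Of the leukocyte panel 3 genes were measured, from Cytip (-0.24) to Srgn (0.37).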

How the data were processed

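Droplet libraries of single cells from intestinal tumours, cKO and WT, were analysed from the UMI count matrices that the authors deposited. Counts came from Cell Ranger 7.2.0 per the file headers. Seurat 3.0 and the build mm10 are named in the submitters' processing notes. The handling of introns and strand is not stated there. Reads were assigned against 1 reference sequence, and class I heavy chains differ between mouse strains, so a level can depend on how well a pool's alleles match it.

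Barcodes with under 500 genes (1607 in cKO, 905 in WT), over 25% mitochondrial UMIs (487, 671) or a simulated-doublet score in the top 0.8% per 1000 barcodes (362, 714) were left out. The rest were clustered with scanpy 1.11.5 and leidenalg 0.10.2 (2000 variable genes, 30 components, 20 neighbours, resolution 1), keeping the members and the other lists out of the variable genes. Of 28 clusters, those that scored at least 2 on the markers of 1 class, or as epithelial, were named "-like". The scoring rule was set after the clusters were seen. Raw counts were then summed per class and library, without a test, 0.5 counts being added to each side of a log2 ratio (numpy 2.4.6, scipy 1.17.1, pandas 2.3.3, matplotlib 3.10.9). PCR copies are removed by the UMIs, but intervals do not cover the spread between mice. The ratio script was tested on simulated data.

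The members and lists were chosen with earlier results of these data known. Named were the 10 members, each measured gene of 11 other lists past 1.5-fold or at its list's extremes in epithelial-like cells, and the 5 genes most like the members (at 20 CPM or more somewhere, outside the lists), besides markers, cluster-leading genes and Mtch2. Psmb5, Psmb6, Nlrc5 in the sex split, and Ifng were added after their values were seen. H2-T10, H2-Bl, Mx1 and Mx2 were not analysed here. Gene positions are from GENCODE M21 and matched 32158 of 32285 genes. The alternatives were 2 scalings, cell and cluster weights, level filters, pseudocount, barcode and doublet filters, cluster resolution and genes, a per-cell marker gate, depth, leukocyte UMIs, sex, shared barcodes and unnamed clusters. A stricter sex assignment (at least 3 UMIs), leaving out 3 shallow clusters and leaving out the Npy cluster were added after seeing the data. The second form of the interferon-stimulated response element was added after the promoter sequences were seen.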

Additional observations from a re-analysis of the deposited data

Results flagged for a closer look

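In 5 of the 10 genes the cKO cells stood above WT among epithelial-like, female-assigned cells and below WT among those assigned male, with neither interval of the log2 ratio reaching 0. The log2 ratio in female-assigned cells minus that in male-assigned cells was 1.54 for H2-Q7, 1.03 for Tap2, 0.97 for H2-K1, 0.79 for B2m and 0.72 for H2-D1. The difference between the sexes was not tested, since each genotype is 1 library and the mice behind the cells of either sex are not known. The ratio for H2-Q7 was 0.18 in female-assigned cells and -1.36 in male-assigned cells, and for Tap2 0.30 in female-assigned cells and -0.73 in male-assigned cells.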

How the results depend on the processing

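No paired analysis was possible because each genotype is 1 library and the labels give no replicate numbers. The epithelial-like median of -0.46 lay between -0.47 and -0.42 in 18 of 24 alternatives. It was -0.36 with clusters weighted equally, -0.17 in cells without leukocyte panel UMIs, -0.68 in male-assigned cells by either assignment, and above 0 in female-assigned cells (0.10, and 0.12 by the stricter assignment). The number of genes lower by 1.5-fold, 1 in the main result, was 0 without panel UMIs and in female-assigned cells by either assignment, 7 in male-assigned cells and 6 by the stricter assignment. Among single genes the direction turned only in female-assigned cells: H2-K1 0.25, H2-D1 0.18, H2-Q4 0.073, H2-Q7 0.18, B2m 0.13 and Tap2 0.30, and by the stricter assignment 0.26, 0.21, 0.083, 0.23, 0.15 and 0.34. The median in female-assigned cells, 0.10, was 0.30 with equal cluster weights, 0.25 with all deposited barcodes, 0.21 with doublet calls kept in, 0.23 at resolution 2, 0.46 without panel UMIs and 0.22 without the Npy cluster. The median in male-assigned cells, -0.68, was -0.56 by per-cell CPM, -0.75 with all barcodes, -0.39 without panel UMIs and -0.58 without the Npy cluster. The share of clusters with a median below 0, 90%, was 100% of 4 without panel UMIs, 33.3% of 3 in female-assigned cells and 50% of 2 by the stricter assignment, and 100% of 5 in male-assigned cells by the stricter assignment. The causes were not tested, beyond the smaller sets of cells and clusters these settings leave.

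The medians of the neutrophil-like, T-like and macrophage and monocyte-like cells moved by less than their intervals in every alternative run. Scaling by the median of ratios brought the neutrophil-like median to -0.04, since all genes there shift by -0.22. Of the 4 classes compared, T-like cells held the highest level of 9 of the 10 genes in both libraries, and of 8 or 9 in the alternatives. No value could be had, for want of 50 cells, for T-like cells by the marker gate or assigned female, macrophage and monocyte-like, female-assigned cells, neutrophil-like cells above 5000 UMIs, assigned female or male by at least 3 UMIs, or the order of classes in those settings. Depth limits Tap1, Tap2 and Psmb9 most, and classes under 100 cells. With 1 library a genotype, no setting speaks to the spread between mice.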
